A study of Homo sapiens with 6 samples.

Results

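Membrane transporters, pumps and ion channels were taken from the RNA-seq table as the genes whose symbol begins with SLC (without the mitochondrial carriers SLC25), ABCA to ABCG followed by a digit, ATP1, ATP2, ATP6, ATP13, KCN, CACN, SCN, CLCN, TRPC, TRPM, TRPV, ORAI or P2R. The symbol rule found 34 of the 1273 genes in the table: 2 subunits of the vacuolar proton pump, 4 P-type pumps and flippases, 3 ABC proteins, 19 SLC genes, 2 potassium channel genes, 3 calcium channel genes and 1 chloride channel gene. No gene with the prefix ATP2, SCN, TRPC, TRPV or P2R was among the genes of the table, which says nothing of whether these cells express them. A pair of genes carry the SLC prefix without being transporters, namely SLC2A4RG, a transcription factor named for a glucose transporter it regulates, and SLC9A3R2, a PDZ scaffold protein that binds a sodium/proton exchanger.

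The cells were Rh30, a human alveolar rhabdomyosarcoma line, that is, a line from a childhood soft tissue tumour with features of skeletal muscle. PANX1, which encodes the channel-forming protein pannexin 1, was expressed from a lentiviral cumate switch in 3 libraries, and 3 libraries came from the control cells with the GFP vector. The cells of both groups were stable lines selected with geneticin and puromycin and received 30 µg/mL cumate for 48 h, so that selection and inducer are shared. In the cumate system the CymR repressor, carried by the cells, is released by cumate. The methods call the control an empty plasmid (GFP), whereas the labels place GFP itself under the switch. The paper states that GFP is made constitutively in all cells of this system, those with PANX1 included, and that PANX1 needs cumate. A difference between the transduced lines cannot be told apart from an effect of PANX1. Poly(A) RNA was sequenced, and the values are FPKM, fragments scaled by the length of the transcript and the size of the library, which can be set side by side between genes. The values of a group are given throughout in the order of replicates 1, 2 and 3, and loci are those of the table on hg19. In such bulk samples, fewer cells that express a gene and less of its RNA per cell cannot be told apart.

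Transporters and pumps set the ionic and metabolic make-up of a cell and of its organelles. Pumps and ABC proteins use ATP to move ions, protons or lipids, SLC carriers move solutes along or against gradients that the pumps maintain, and channels let ions pass down their gradients. The vacuolar proton pump acidifies endosomes and lysosomes, and the chloride/proton exchanger of the lysosome balances its charge. In skeletal muscle cells, inward rectifier potassium channels hold the resting membrane potential, and store-operated calcium entry refills the sarcoplasmic reticulum.

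Several properties of the table bear on every value. The 1273 genes match in number those that the authors had called at a false discovery rate under 0.05 on these same 6 libraries, so that a difference in a listed gene is no independent evidence. PANX1 itself had 37.8, 35.3 and 28.1 FPKM in the GFP libraries against 124, 184 and 123 FPKM in the PANX1 libraries, a fold of 4.26, as the labels say. The exact two-sided permutation p was 0.1, the smallest that 3 libraries against 3 allow. PANX1 replicate 3 stood apart: the summed FPKM of the table was 34950 to 44470 in the GFP libraries, 53900 and 56720 in PANX1 replicates 1 and 2 and 105900 in replicate 3. Of the 14 muscle lineage and tumour markers looked up, DES, TNNT1 and MYH8 were in the table and the other markers were not, so that the cell type could be checked on these 3 genes only. DES, the muscle intermediate filament, was at 214.5 to 571 FPKM in the 6 libraries, with a higher mean in PANX1 and no call. TNNT1, a slow muscle troponin, rose from 140.1 ± 12.9 FPKM in GFP to 283 ± 141 FPKM in PANX1 (SD, n = 3 each, adjusted p = 0.0464 in limma). MYH8, a perinatal myosin, fell from 0.626 ± 0.248 FPKM in GFP to 0.135 ± 0.116 FPKM in PANX1 (SD, n = 3 each, adjusted p = 0.0354 in limma), so that the markers did not share a direction. Of 6 markers of other cell types, CD68 alone was in the table, at 0.416 to 1.08 FPKM in GFP and 1.37 to 2.40 FPKM in PANX1. The part of these markers in the results was not tested.

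Most transporter, pump and channel genes were higher on average in PANX1 than in GFP cells, as most genes of the table were. The mean was higher for 30 members and lower for 4, against 87.0% higher and 13.0% lower over the whole table. All 3 PANX1 values lay above all 3 GFP values for 28 members, beside 82.0% of the table, and all lay below for 3 members, beside 11.9% of the table. By limma on log2(FPKM + 1), with Benjamini-Hochberg adjustment over the 1273 genes and a threshold of 0.05, 10 members rose, which is 29.4% of them beside 33.5% of the table, and 0 fell, beside 0.707% of the table. At an unadjusted p under 0.05 the numbers were 17 higher and 1 lower, beside 58.4% and 3.38%. Among the members that rose were ATP10A, ATP6V0D1, SLC22A17, SLC29A4, SLC2A4RG, SLC39A13, SLC52A2, SLC9A3R2 and TRPM2. The log2 ratio exceeded 1 in 25 members, beside 72.0% of the table, and was below -1 in 1, beside 3.22%. The median log2 ratio of mean FPKM, PANX1 over GFP without a pseudocount, was 1.22 over the members and 1.23 over the table. As shares and as medians, the members thus lay near the background of the table they are part of.

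The 3 PANX1 libraries contributed unequally to these ratios. Against the mean of the GFP libraries, the median log2 ratio of the members was 0.83, 0.53 and 1.84 in the PANX1 libraries, and over the table it was 0.77, 0.61 and 1.87. Replicate 3 was the highest PANX1 library in 28 of the 30 members with a higher mean, beside 97.6% of the genes of the table with a higher mean. The exceptions were ATP10A and CACNG4. Without replicate 3 the median log2 ratio of the members was 0.67, and limma called 26 members higher and 3 lower, beside 78.1% and 11.5% of the table. The spread between the PANX1 libraries was thus smaller without replicate 3, and so was the difference between the groups.

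**Figure D1:**
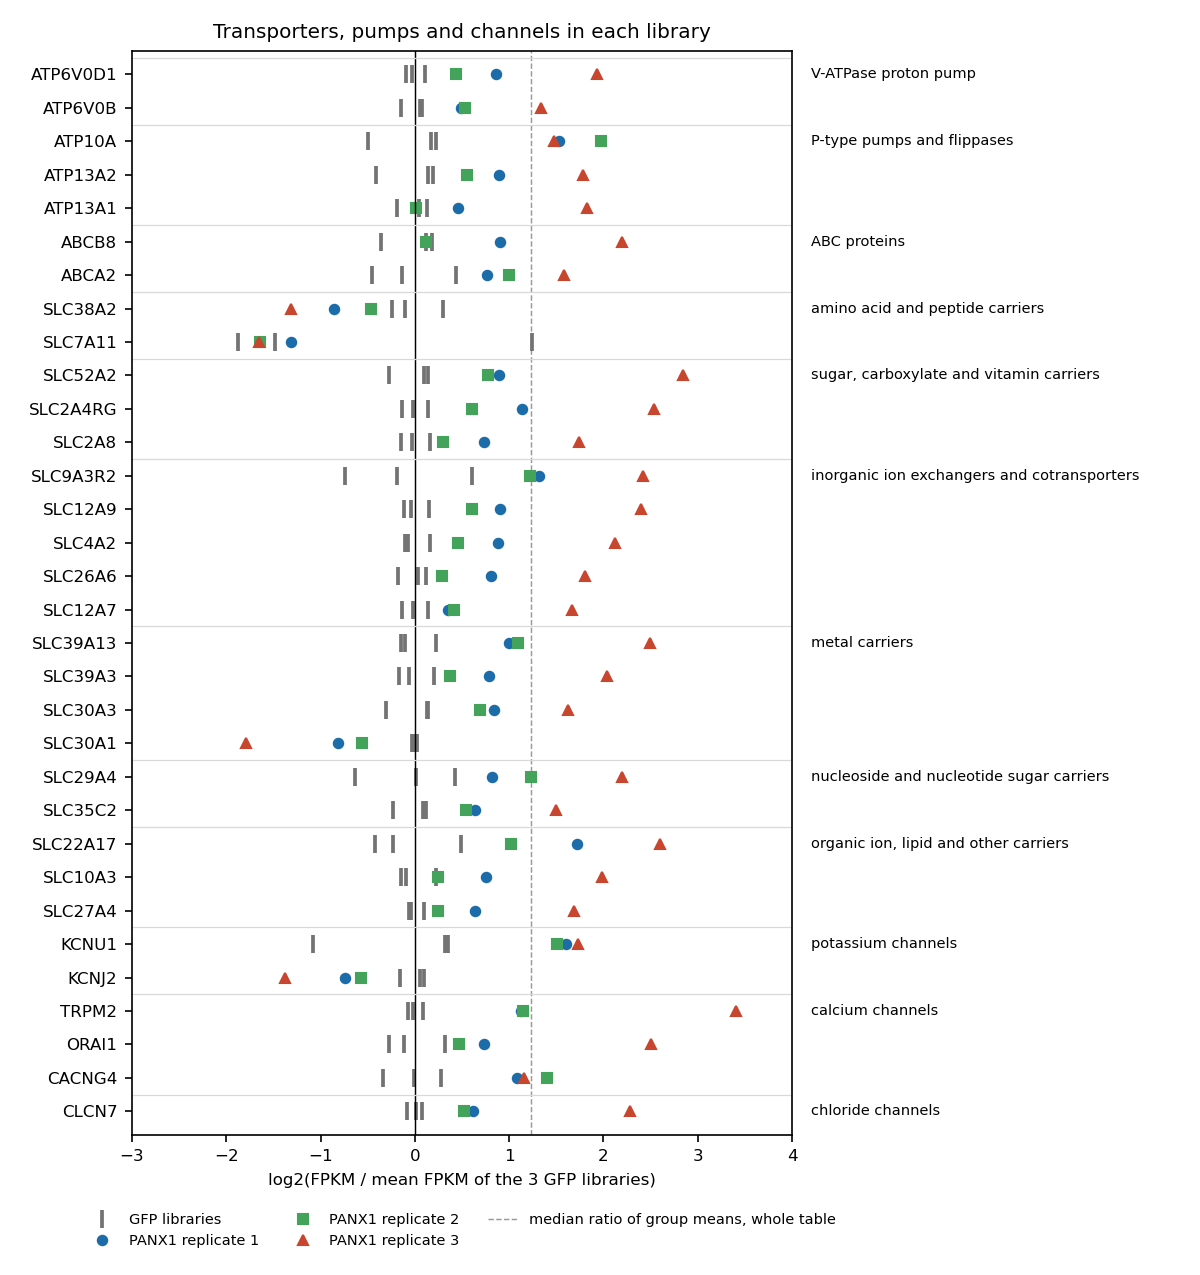
Each row is a named member, in its functional group, and the horizontal axis is the log2 of its FPKM in a library over its mean FPKM in the 3 GFP libraries. Grey ticks are GFP libraries, colored symbols are the PANX1 libraries, and the dashed line is the median log2 ratio of the whole table, 1.23. PANX1 replicate 3 is the highest PANX1 library for every plotted member with a higher mean except ATP10A and CACNG4, SLC38A2, SLC30A1 and KCNJ2 lie to the left of 0 in all PANX1 libraries, and for SLC7A11 a single GFP library lies far to the right of the others.

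The most abundant higher members were subunits of the vacuolar proton pump. ATP6V0B and ATP6V0D1 encode parts of its membrane sector, a proteolipid of the rotating ring and the subunit that links the ring to the stalk. ATP6V0B (chr1:44440602-44443972) had 54.8, 63.9 and 62.9 FPKM in the GFP libraries against 85.0, 87.3 and 153 FPKM in the PANX1 libraries, the highest mean of all members. For ATP6V0B the log2 ratio was 0.84 (limma change 0.78, standard error 0.37, adjusted p = 0.0712). ATP6V0D1 (chr16:67471917-67515089) had 23.7, 26.1 and 22.6 FPKM in the GFP libraries against 43.7, 32.6 and 91.7 FPKM in the PANX1 libraries. For ATP6V0D1 the log2 ratio was 1.22, and the gene rose by the test (limma change 1.05, standard error 0.40, adjusted p = 0.0373). For both genes all PANX1 libraries were above all GFP libraries. Replicate 3 supplied much of the difference, since the log2 ratio was 0.51 for ATP6V0B and 0.66 for ATP6V0D1 without it.

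Other members of the endosomal and lysosomal membrane also had their highest value in PANX1 replicate 3. CLCN7 (chr16:1494934-1525085), the chloride/proton exchanger of the lysosome and the sole chloride channel gene, had 2.81, 3.13 and 2.99 FPKM in the GFP libraries against 4.57, 4.29 and 14.5 FPKM in the PANX1 libraries. For CLCN7 the log2 ratio was 1.39, without a call (limma change 0.95, standard error 0.51, adjusted p = 0.0889). ATP13A2, a P-type pump of the lysosome that exports polyamines, had 6.04, 9.18 and 8.81 FPKM in the GFP libraries against 14.9, 11.8 and 27.6 FPKM in the PANX1 libraries. For ATP13A2 the log2 ratio was 1.18 (limma change 1.02, standard error 0.49, adjusted p = 0.0712). In both genes replicates 1 and 2 lay close together and replicate 3 lay clearly above them. Over the 4 lysosomal genes ATP6V0B, ATP6V0D1, CLCN7 and ATP13A2, a grouping made after their values were seen, the median log2 ratio was 1.20, beside 1.23 in the table. Of 13 other genes of the proton pump and of lysosomal signalling that were looked up, 2 were in the table, the Ragulator subunits LAMTOR2 and LAMTOR4. Both rose, beside 33.5% of the table called higher. LAMTOR2 went from 15.4 ± 2.09 FPKM in GFP to 35.5 ± 16.1 FPKM in PANX1 (SD, n = 3 each, adjusted p = 0.041 in limma). LAMTOR4 went from 17.3 ± 5.03 FPKM in GFP to 67.5 ± 48.5 FPKM in PANX1 (SD, n = 3 each, adjusted p = 0.00129 in limma). MCOLN1 and TMEM175, which are cation channels of the lysosome, had log2 ratios of 1.10 and 1.25 without a call.

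**Figure D2:**
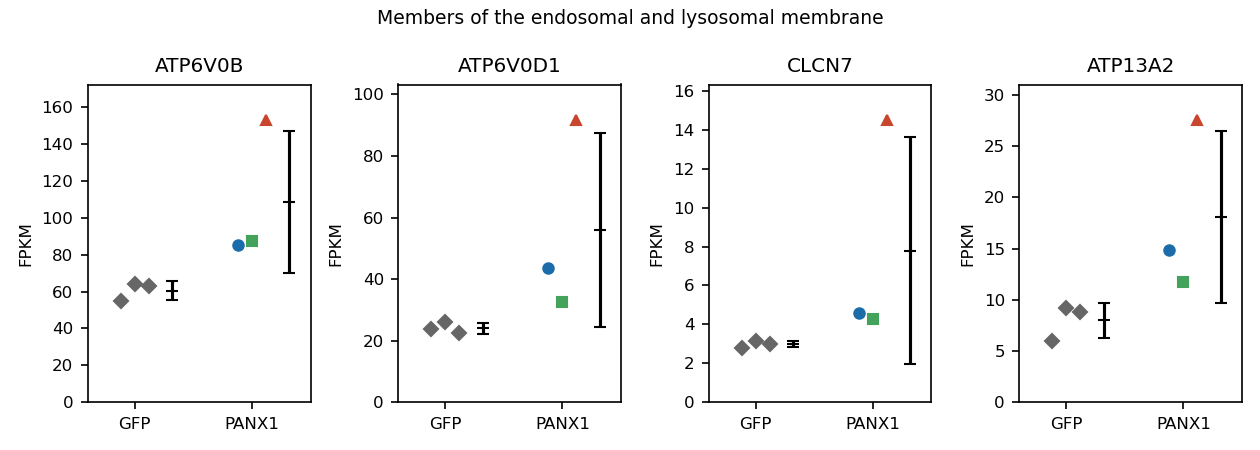
FPKM on a linear axis from 0 for the 4 lysosomal members in the 3 GFP libraries (grey diamonds) and PANX1 replicates 1 (circle), 2 (square) and 3 (triangle), with the mean and SD of each group as a bar. No PANX1 library falls within the GFP range in any panel, and replicate 3 is the highest, as for ATP13A2 and ATP6V0D1 with 27.6 and 91.7 FPKM.

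Promoters of the lysosomal members were read because many lysosomal genes share the motif TCACGTG near their start site, which transcription factors of the TFEB family bind. RefSeq promoters, from 250 bases before to 50 after the start site on GRCh38.p14, were found for 26 of the 34 members. The letters TCACGTG, on either strand, occurred in 5 of these 26 promoters (19.2%), those of ATP6V0B, ATP6V0D1, CLCN7, SLC12A7 and SLC4A2, and in 4.49% of 27305 promoters. The 150 bases before the start site of 3 of them are shown 5′ to 3′ on the strand of the gene, with the matches in capitals: ATP6V0B at chr1:43974810-43974959 (plus strand), ATP6V0D1 at chr16:67481158-67481307 (minus strand) and CLCN7 at chr16:1475029-1475178 (minus strand).
ATP6V0B: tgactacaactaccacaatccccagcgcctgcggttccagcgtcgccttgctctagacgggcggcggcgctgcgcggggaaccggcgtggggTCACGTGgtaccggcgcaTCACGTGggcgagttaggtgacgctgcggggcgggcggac
ATP6V0D1: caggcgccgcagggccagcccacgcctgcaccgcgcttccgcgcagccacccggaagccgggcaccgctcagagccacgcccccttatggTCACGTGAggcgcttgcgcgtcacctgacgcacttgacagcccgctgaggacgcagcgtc
CLCN7: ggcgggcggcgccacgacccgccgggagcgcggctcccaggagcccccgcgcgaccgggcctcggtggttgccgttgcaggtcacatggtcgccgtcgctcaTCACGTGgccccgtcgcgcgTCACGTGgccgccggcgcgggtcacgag
The matches began 58 and 40 bases before the start site in ATP6V0B, 60 and 59 in ATP6V0D1, where the 2 are the same place read on the 2 strands, and 48 and 28 in CLCN7. The promoter of ATP13A2, the other lysosomal member, was also read and did not hold the letters TCACGTG. The share of promoters with these letters was not taken over the genes of the table alone. A match is a description of letters and not a measured binding site, and no value of the table bears on binding. The GC box letters GGGCGG were in 24 of the 26 promoters (92.3%, beside 48.3% of all promoters), and the letters TATAAA were in 0 (14.0% of all promoters). These shares too were not taken over the genes of the table alone. The median transcript GC content of the table was 61.0%, beside 49.1% over annotated protein-coding genes, so that neither share can be called particular to the members.

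Among the P-type ATPases, ATP10A differed from the other members in its libraries. ATP10A (chr15:25923860-26108349), a flippase that moves phospholipids to the inner leaflet of the plasma membrane, had 0.834, 0.522 and 0.860 FPKM in the GFP libraries against 2.14, 2.90 and 2.05 FPKM in the PANX1 libraries. For ATP10A the log2 ratio was 1.68, and the gene rose by the test (limma change 0.95, standard error 0.32, adjusted p = 0.0247). Here replicate 2 was the highest PANX1 library and replicate 3 the lowest, and the log2 ratio without replicate 3 was 1.77. ATP13A1, which removes misplaced membrane helices from the endoplasmic reticulum, had 4.99, 4.70 and 4.02 FPKM in the GFP libraries against 6.29, 4.59 and 16.2 FPKM in the PANX1 libraries. For ATP13A1 the log2 ratio was 0.98 (limma change 0.68, standard error 0.52, adjusted p = 0.197). Its replicate 2 lay within the GFP range, and without replicate 3 its log2 ratio was 0.25. Of 10 regulators of the sodium pump and of cotransporters that were looked up, FXYD5 was the one in the table, at 11.6 ± 2.50 FPKM in GFP and 22.9 ± 7.01 FPKM in PANX1 (SD, n = 3 each) with a log2 ratio of 0.98 and no call.

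The ABC proteins use ATP to move lipids and other substrates across membranes of organelles. ABCA2, a lipid transporter of endosomes and lysosomes, had 2.27, 2.83 and 4.20 FPKM in the GFP libraries against 5.25, 6.17 and 9.29 FPKM in the PANX1 libraries. For ABCA2 the log2 ratio was 1.16 (limma change 0.94, standard error 0.51, adjusted p = 0.0908). Its groups did not overlap. ABCB8, a transporter of the inner mitochondrial membrane, had a log2 ratio of 1.33, which was 0.56 without replicate 3, and its groups overlapped. The locus of ABCA2 overlaps another coding gene of the GENCODE v44lift37 annotation, FUT7, and no strand mark is described for these libraries, so that reads of the 2 genes may not have been told apart.

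All 3 calcium channel genes had higher means, and they differed in how alike the PANX1 libraries were. TRPM2 (chr21:45773484-45862964), a calcium-permeable cation channel that opens on ADP-ribose and oxidative stress, had 0.303, 0.326 and 0.290 FPKM in the GFP libraries against 0.669, 0.681 and 3.26 FPKM in the PANX1 libraries. Its GFP values were low and close together, and all PANX1 libraries were at least 2 times their mean. The log2 ratio of 2.33 was the largest of all members, and the gene rose by the test (limma change 0.81, standard error 0.24, adjusted p = 0.0123). Without replicate 3 it was 1.14. CACNG4 (chr17:64960980-65029518), an auxiliary subunit that associates with AMPA-type glutamate receptors, had 0.941, 1.18 and 1.44 FPKM in the GFP libraries against 2.51, 3.13 and 2.65 FPKM in the PANX1 libraries. Its log2 ratio was 1.22 with replicate 3 and 1.25 without it, and every PANX1 library was at least 2 times the GFP mean. The test gave no call (limma change 0.79, standard error 0.37, adjusted p = 0.0686). ORAI1 (chr12:122064455-122079946), the pore of store-operated calcium entry, had 2.14, 2.39 and 3.22 FPKM in the GFP libraries against 4.29, 3.56 and 14.7 FPKM in the PANX1 libraries. For ORAI1 the log2 ratio was 1.54 (limma change 1.02, standard error 0.50, adjusted p = 0.0733) and 0.60 without replicate 3. None of 10 genes of the calcium store and its sensors that were looked up, among them STIM1 and RYR1, was in the table.

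The potassium channel genes differed in the direction of their means. KCNU1 (chr8:36641842-36793643), a pH-sensitive potassium channel known from sperm, had 0.135, 0.0507 and 0.137 FPKM in the GFP libraries against 0.327, 0.306 and 0.357 FPKM in the PANX1 libraries. Its mean FPKM was the lowest of all members and the groups did not overlap. All 3 PANX1 libraries were alike, with a log2 ratio of 1.62 with replicate 3 and 1.56 without it. On the log2(FPKM + 1) scale, which shrinks differences between such low values, it gave no call (limma change 0.26, standard error 0.17, adjusted p = 0.137). That standard error is pooled over genes of like level. With a pseudocount of 0.1 or 0.01 KCNU1 was called higher (adjusted p = 0.0414 and 0.035 in limma). KCNJ2 (chr17:68165676-68176183), the inward rectifier that holds the resting potential of muscle cells, had 8.94, 10.7 and 10.4 FPKM in the GFP libraries against 5.97, 6.71 and 3.86 FPKM in the PANX1 libraries. For KCNJ2 the log2 ratio was -0.86 (limma change -0.78, standard error 0.52, adjusted p = 0.142). All its PANX1 values were below all its GFP values, and its log2 ratio was -0.66 without replicate 3.

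**Figure D3:**
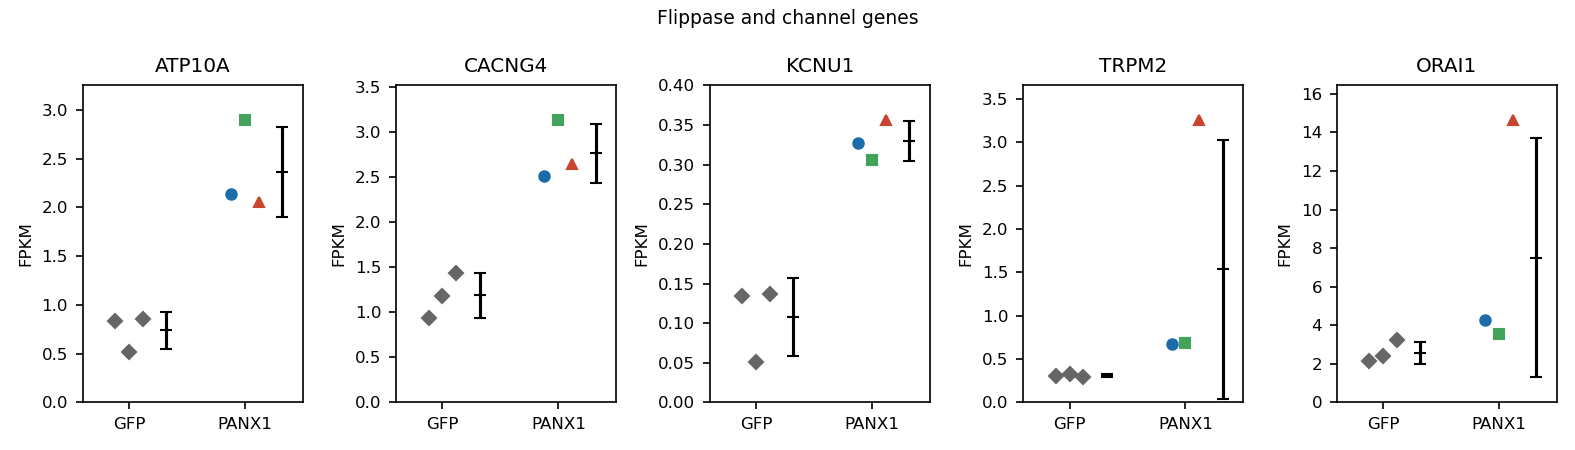
FPKM on a linear axis from 0 for ATP10A and the channel genes CACNG4, KCNU1, TRPM2 and ORAI1, with GFP libraries as grey diamonds, PANX1 replicates 1 to 3 as circle, square and triangle, and the mean and SD of each group as a bar. In ATP10A, CACNG4 and KCNU1 the 3 PANX1 libraries lie close together, whereas in TRPM2 and ORAI1 replicate 3 (3.26 and 14.7 FPKM) lies far above the others.

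The sugar and vitamin carriers by symbol, 3 members with a median log2 ratio of 1.67, included 2 that rose, beside 33.5% of the table. Of these 2, SLC52A2 is a carrier and SLC2A4RG is not, and the median is the ratio of SLC2A4RG itself. SLC52A2 (chr8:145582217-145584948), a riboflavin transporter, had 2.81, 3.62 and 3.74 FPKM in the GFP libraries against 6.31, 5.81 and 24.3 FPKM in the PANX1 libraries. For SLC52A2 the log2 ratio was 1.84 (limma change 1.30, standard error 0.52, adjusted p = 0.0429). SLC2A4RG, the transcription factor, had 8.44, 9.16 and 10.2 FPKM in the GFP libraries against 20.4, 14.1 and 53.9 FPKM in the PANX1 libraries. For SLC2A4RG the log2 ratio was 1.67 (limma change 1.35, standard error 0.46, adjusted p = 0.0242). SLC2A8, an intracellular glucose transporter, had 4.70, 5.08 and 5.79 FPKM in the GFP libraries against 8.64, 6.40 and 17.4 FPKM in the PANX1 libraries. For SLC2A8 the log2 ratio was 1.06 (limma change 0.83, standard error 0.52, adjusted p = 0.126). All PANX1 libraries of the 3 genes were above all GFP libraries, and without replicate 3 the log2 ratios were 0.84, 0.90 and 0.54. The loci of SLC52A2 and SLC2A4RG overlap FBXL6 and ZBTB46 as annotated in GENCODE v44lift37, although the table's own locus of FBXL6 ends before that of SLC52A2. Reads of these neighbours may not have been told apart either. FBXL6, itself in the table, rose from 1.49 ± 0.122 FPKM in GFP to 6.96 ± 5.95 FPKM in PANX1 (SD, n = 3 each, adjusted p = 0.018 in limma).

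Among 5 genes of ion exchangers and cotransporters, SLC9A3R2 rose and the transporters themselves gave no call, beside 33.5% of the table called higher. SLC9A3R2 (chr16:2076869-2089027), the scaffold protein, had 0.458, 0.311 and 0.793 FPKM in the GFP libraries against 1.30, 1.22 and 2.78 FPKM in the PANX1 libraries. For SLC9A3R2 the log2 ratio was 1.76 (limma change 0.83, standard error 0.28, adjusted p = 0.0227). SLC12A7, a potassium/chloride cotransporter that lets cells lose volume, had 16.4, 13.5 and 14.7 FPKM in the GFP libraries against 18.9, 19.9 and 47.1 FPKM in the PANX1 libraries. For SLC12A7 the log2 ratio was 0.94 (limma change 0.78, standard error 0.44, adjusted p = 0.0978). The groups were apart in both, by a smaller ratio in SLC12A7 (0.38 without replicate 3) than in SLC9A3R2 (1.27). The others were SLC12A9, a relative of the cation/chloride cotransporters, with a log2 ratio of 1.53, and the anion exchangers SLC4A2 and SLC26A6 with 1.33 and 1.11. SLC4A2 lies on chromosome 7 next to ABCB8 with the acid-sensing channel gene ASIC3 between them: 509 bases separate ABCB8 from ASIC3 and 5455 bases separate ASIC3 from SLC4A2 on hg19. All 3 had a higher mean in PANX1, with a log2 ratio of 1.30 for ASIC3.

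Metal carriers differed in the direction of their means. SLC39A13 (chr11:47430046-47438051), a zinc transporter of the secretory pathway, had 3.77, 3.68 and 4.74 FPKM in the GFP libraries against 8.13, 8.64 and 22.9 FPKM in the PANX1 libraries. For SLC39A13 the log2 ratio was 1.70, and the gene rose by the test (limma change 1.35, standard error 0.52, adjusted p = 0.039). SLC30A3, which loads zinc into vesicles, had 5.42, 7.28 and 7.32 FPKM in the GFP libraries against 11.9, 10.8 and 20.6 FPKM in the PANX1 libraries. For SLC30A3 the log2 ratio was 1.11 (limma change 0.96, standard error 0.50, adjusted p = 0.0845), and the zinc importer SLC39A3 had a log2 ratio of 1.25. SLC30A1 (chr1:211748381-211752099), the zinc exporter of the plasma membrane, had 11.7, 12.1 and 11.9 FPKM in the GFP libraries against 6.74, 8.04 and 3.42 FPKM in the PANX1 libraries. For SLC30A1 the log2 ratio was -0.97 (limma change -0.93, standard error 0.52, adjusted p = 0.095) and -0.69 without replicate 3. Its 3 GFP libraries were nearly equal and all PANX1 libraries lay below them, with replicate 3 the lowest. SLC30A1 is a known target of the metal-responsive factor MTF1, which binds the letters TGCACNC. Its promoter is shown for that reason, as the 150 bases before the start site at chr1:211579162-211579311 on the minus strand of GRCh38.p14, with the match in capitals.
SLC30A1: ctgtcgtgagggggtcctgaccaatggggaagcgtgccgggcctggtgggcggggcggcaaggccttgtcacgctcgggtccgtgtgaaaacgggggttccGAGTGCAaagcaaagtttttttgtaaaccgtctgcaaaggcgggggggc
The match began 49 bases before the start site, and another, after the start site, is not shown. These letters were in 4 of the 26 member promoters (15.4%), those of SLC12A7, SLC30A1, SLC30A3 and SLC4A2, and in 14.4% of all promoters. The metallothionein MT2A, another gene known to respond to that factor and chosen here after its values were seen, had 38.5, 43.8 and 43.8 FPKM in the GFP libraries against 78.1, 68.9 and 308 FPKM in the PANX1 libraries (adjusted p = 0.00306 in limma).

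The amino acid carriers, SLC38A2 and SLC7A11, both had a lower mean FPKM in PANX1 cells. SLC38A2 (chr12:46751971-46766645), a sodium-coupled importer of glutamine and other neutral amino acids, had 73.0, 66.4 and 96.3 FPKM in the GFP libraries against 43.5, 56.9 and 31.5 FPKM in the PANX1 libraries. For SLC38A2 the log2 ratio was -0.84 (limma change -0.84, standard error 0.38, adjusted p = 0.0609) and -0.65 without replicate 3. It was the second most abundant member, its groups did not overlap, and replicate 3 was the lowest library. SLC7A11 (chr4:138948577-139163503), the cystine/glutamate antiporter that supplies cysteine for glutathione, had 0.422, 0.321 and 2.79 FPKM in the GFP libraries against 0.473, 0.376 and 0.375 FPKM in the PANX1 libraries. Its log2 ratio of -1.53 rested on GFP replicate 3, since the other GFP libraries lay within or next to the PANX1 range. The groups overlapped, with an exact two-sided permutation p of 0.8. Without GFP replicate 3 the limma change was 0.038. The letters TGATGNAA, a form of the amino acid response element, were in 0 of the 26 member promoters and in 4.46% of all promoters, and no inference about the factor can be drawn from that. The promoter of SLC38A2 was among the 26, but the values at hand do not show whether one was read for SLC7A11.

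**Figure D4:**
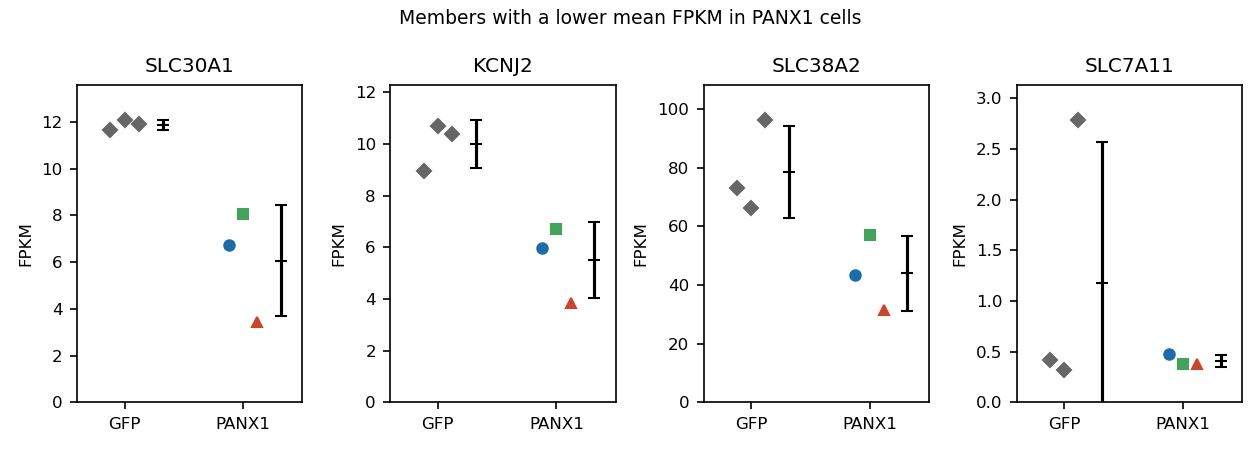
FPKM on a linear axis from 0 for the 4 members with a lower mean in PANX1 cells, with GFP libraries as grey diamonds, PANX1 replicates 1 to 3 as circle, square and triangle, and the mean and SD of each group as a bar, which is cut at 0 for SLC7A11. SLC30A1, KCNJ2 and SLC38A2 show no overlap between the groups and their lowest value in replicate 3, while the SLC7A11 mean in GFP is set by 1 library at 2.79 FPKM.

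The remaining SLC genes had higher means. SLC22A17 (chr14:23815527-23822080), a receptor for lipocalin with the fold of an organic cation transporter, had 0.222, 0.193 and 0.364 FPKM in the GFP libraries against 0.858, 0.527 and 1.57 FPKM in the PANX1 libraries. For SLC22A17 the log2 ratio was 1.92, and the gene rose by the test (limma change 0.63, standard error 0.22, adjusted p = 0.0296). SLC29A4, which carries monoamines and nucleosides, had 0.515, 0.804 and 1.07 FPKM in the GFP libraries against 1.40, 1.87 and 3.66 FPKM in the PANX1 libraries. For SLC29A4 the log2 ratio was 1.53, and the gene also rose (limma change 0.83, standard error 0.32, adjusted p = 0.0385). All PANX1 libraries were above all GFP libraries in both, and in SLC22A17 each was at least 2 times the GFP mean. SLC35C2, a nucleotide sugar transporter relative of the Golgi, had 5.76, 7.20 and 7.39 FPKM in the GFP libraries against 10.5, 9.89 and 19.2 FPKM in the PANX1 libraries. For SLC35C2 the log2 ratio was 0.96 (limma change 0.82, standard error 0.51, adjusted p = 0.121). SLC27A4, a fatty acid transport protein with acyl-CoA synthetase activity, had 6.42, 7.12 and 6.50 FPKM in the GFP libraries against 10.4, 7.94 and 21.6 FPKM in the PANX1 libraries. For SLC27A4 the log2 ratio was 0.99 (limma change 0.78, standard error 0.51, adjusted p = 0.134). The groups were apart in both, but without replicate 3 the log2 ratios were 0.59 and 0.46. SLC10A3, whose substrate is not known, had a log2 ratio of 1.19.

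A level of at least 2 times the GFP mean in every PANX1 library was found for 6 members, ATP10A, CACNG4, KCNU1, SLC22A17, SLC9A3R2 and TRPM2, beside 10.8% of the table. Their FPKM values were low, with mean values over the 6 libraries from 0.219 in KCNU1 to 1.97 in CACNG4. In the other 24 members with a higher mean, replicate 1 or replicate 2 or both stayed below that level. SLC39A13, which had more RNA, missed it only by rounding, with 8.126 FPKM in PANX1 replicate 1 beside a GFP mean of 4.063 FPKM.

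The excess of PANX1 replicate 3 over the mean of replicates 1 and 2 followed the GC content of the transcripts. Transcript GC content, from GENCODE v44lift37, was 35.4% to 40.8% in the 4 members with a lower mean, 43.3% in KCNU1 and 53.2% to 67.2% in the others, with a median of 61.2% over the members, 61.0% over the table and 49.1% over annotated protein-coding genes. Across the 34 members the log2 excess of replicate 3 and the GC content had a Pearson's r of 0.83 and a Spearman's rho of 0.69, and these were 0.80 and 0.65 across 1266 genes of the table. These are descriptions across genes that share the same libraries, and genes are not independent replicates. The lower members lie apart from the other members at low GC content, and among the 30 members with a higher mean alone, Pearson's r was 0.62. The 165 genes of the table with a lower mean also had low GC content, with a median of 39.09% beside 39.05% in the 4 lower members. Their median log2 excess of replicate 3 was -0.95, beside -0.69 in the 4 lower members.

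**Figure D5:**
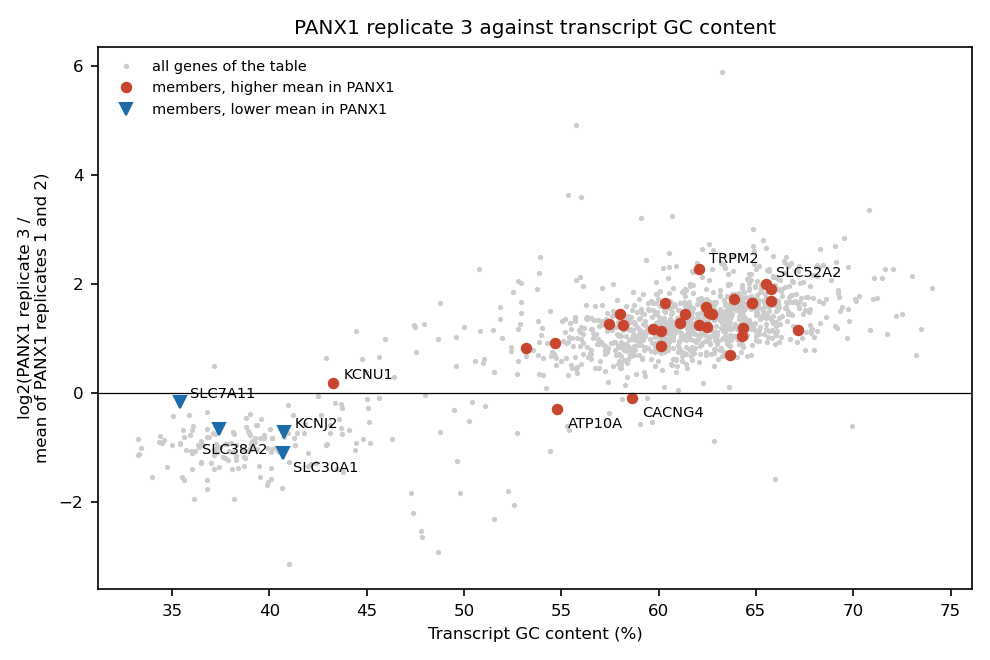
The horizontal axis is transcript GC content in percent and the vertical axis is the log2 excess of PANX1 replicate 3 over the mean of PANX1 replicates 1 and 2, for the genes of the table (small points) and the 34 members (large points). The 4 members with a lower mean, at a GC content of 35.4% to 40.8%, lie below 0, and most of those at 53.2% to 67.2% lie above 1, among the points of the table.

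The linear slope of each library on GC content was removed, with 49.1% GC, the median of annotated protein-coding genes, as the reference. The size and sign of a corrected change depend on that reference, and no other was tried. With it the median limma change of the table went from 0.89 to 0.19. After the correction limma called 0 members in either direction, beside 0.711% of the table higher and 0.0% lower. At an unadjusted p under 0.05 there were 8 members higher and 1 lower, beside 25.7% and 6.0% of the table. The changes that were largest after this correction were those of ATP10A (0.61, adjusted p = 0.108 in limma), KCNU1 (0.61, against 0.26 without the correction, adjusted p = 0.103 in limma), ATP6V0D1 (0.55), ATP6V0B (0.54) and SLC39A13 (0.53) on the log2 scale. Among the lower members, SLC30A1 had -0.43 (adjusted p = 0.106 in limma), KCNJ2 -0.29 and SLC38A2 -0.15. SLC22A17 and SLC9A3R2, which had risen without the correction, had -0.28 and -0.24 with this reference. The correction also removes any difference between the groups that itself follows GC content, and which part of a change is of either kind cannot be told apart here.

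A rescaling of the libraries by their median of ratios over the table moved the median limma change of the table from 0.89 to 0.03. On that scale 21 members had a positive and 13 a negative change, and limma called 0 members in either direction, beside 0.0% of the table. At an unadjusted p under 0.05, 2 members were higher and 3 lower, beside 11.4% and 13.4% of the table. SLC30A1, KCNJ2 and SLC38A2 had changes of -1.81, -1.67 and -1.89, and were thus negative on both scales. The 165 genes of the table with a lower mean had a median change of -1.72 on this scale, so that these members lay near them. ATP6V0B, ATP13A1 and SLC12A7 had -0.28, -0.26 and -0.25, so that their direction was higher by FPKM as deposited and negative relative to the table. Since 87.0% of the listed genes were higher in PANX1, this scale gives each gene relative to a table that itself leans one way.

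The mitochondrial carriers SLC25, which the symbol rule leaves out, were set beside the members. All 5 in the table had a higher mean with no overlap, beside 82.0% of the table. Of the 5, 2 rose (SLC25A22 and SLC25A39), beside 33.5% of the table, and their median log2 ratio was 1.17, beside 1.23. Of the carriers of other families, BSG, MFSD3, MFSD10, MFSD12 and SPNS1 all had higher means and 2 of them rose, beside 33.5% of the table. BSG, the chaperone of lactate transporters, went from 67.9 ± 9.47 FPKM in GFP to 168 ± 117 FPKM in PANX1 (SD, n = 3 each, adjusted p = 0.0237 in limma). MFSD3 went from 0.370 ± 0.180 FPKM in GFP to 1.69 ± 0.773 FPKM in PANX1 (SD, n = 3 each, adjusted p = 0.00711 in limma). Of 30 other channel genes that were looked up, 7 were in the table, 5 with a higher and 2 with a lower mean. Of these, 0 were called, beside 33.5% of the table called higher and 0.707% called lower. The lower ones were CLIC4, a chloride intracellular channel protein, at 303 ± 25.1 FPKM in GFP and 184 ± 63.0 FPKM in PANX1 (SD, n = 3 each), and the connexin gene GJC1, at 30.3 ± 2.29 FPKM in GFP and 19.2 ± 3.54 FPKM in PANX1 (SD, n = 3 each). Another connexin gene, GJA1, went the other way at a low level, from 0.207 ± 0.0814 FPKM in GFP to 0.573 ± 0.213 FPKM in PANX1 (SD, n = 3 each). Its log2 ratio was 1.47 without overlap, and with the GC correction it was called higher (adjusted p = 0.0335 in limma). Of 13 genes of purine handling, 2 were in the table, the adenosine receptor ADORA1 with 20.1 ± 2.14 FPKM in GFP and 42.6 ± 20.9 FPKM in PANX1 (SD, n = 3 each) and no call, and NUDT1, which cleaves oxidised nucleotides and rose from 24.0 ± 3.95 FPKM in GFP to 62.2 ± 41.5 FPKM in PANX1 (SD, n = 3 each, adjusted p = 0.0251 in limma).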

How the data were processed

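Poly(A) RNA-seq was made from 6 libraries of Rh30 cells, 3 per group, grouped and numbered by the sample titles. Alignment by the authors used TopHat 2.0.13, Bowtie 2.2.3 and the hg19 build. From Cufflinks 2.2.1 the authors deposited FPKM per gene and library, scaled for library size and transcript length. Read counts and depth per gene are unknown from FPKM, so no counting interval is given. Only the genes of this table were analysed here. The fragment assignment of Cufflinks can divide reads between overlapping genes, and the library protocol describes no strand mark. The methods call the samples biological replicates, and the assignment of libraries to sequencing runs is not given in the sources used here. The p-values describe these 6 libraries only. In the main limma fit, the eBayes trend set the standard error of a gene largely from genes of like level, not from its own libraries. A call or its absence thus does not measure how close together the libraries of that gene lay, as for TRPM2 (called) and CACNG4 (not called).

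All genes of the table were fitted with limma 3.58.1 in R 4.3.3 (lmFit, eBayes with a trend, two-sided) on log2(FPKM + 1) without a block and without a filter on low values, with Benjamini-Hochberg adjustment over 1273 genes. Limma changes and standard errors are on that log2 scale, which understates the change of low genes. Log2 ratios are of group means without a pseudocount. Single genes were tested by an exact two-sided permutation test. On simulated data for 1273 genes of this comparison, the limma fit recovered 177 of 200 genes changed by 2 on the log2 scale and called 2 unchanged genes. The simulated noise was independent between genes, without the shift that genes share in PANX1 replicate 3 and without the authors' selection of genes. These numbers therefore check the code and do not measure false calls in these data. The GC correction used the slope of each library on transcript GC content (1266 genes with a value, all members among them). It subtracted that slope times the distance of a gene from 49.1% GC, the median of annotated protein-coding genes. Loci are hg19 with 1 added to each start.

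The members and lists were chosen with earlier results of these data known. Named with all values were, per functional group, the most abundant member and those with the largest and smallest ratio, every lower member, every called pump, ABC protein or channel, the 5 smallest p and every member at 2 times the GFP mean in all PANX1 libraries; the others have a log2 ratio. Of the members, 2 are counted but not reported by name here. As alternatives, the pseudocount was set to 0.1 or 0.01, genes under a mean FPKM of 1 were dropped, and the fit was repeated leaving out each library, with replicate blocks, without the eBayes trend, with median-of-ratios scaling and with the GC correction. Ratios of group medians and other definitions of membership were also tried. Summaries were made in Python 3.11.15 (pandas 2.3.3, scipy 1.17.1).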

Additional observations from a re-analysis of the deposited data

How the results depend on the processing

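The number of members called higher was 10 in limma. It was 11 with either smaller pseudocount (500 and 516 of the 1273 genes of the table), 4 with a minimum mean FPKM of 1 (321 of 1161) and 0 with eBayes without a trend (0 of 1273). It was 0 with median-of-ratios scaling (0 of 1273), 0 with the GC correction (9 of 1266) and 8 without SLC2A4RG and SLC9A3R2, an alternative added after the data were seen. Leaving out 1 library gave 0 to 26 members called higher and 0 to 3 called lower. It gave 0 higher without GFP replicate 1, 2 or 3 (8, 14 and 51 genes of the table), 7 without PANX1 replicate 1 (300), 16 and 1 lower without replicate 2 (716 and 23), and 26 and 3 lower without replicate 3 (994 and 146). The cause was not tested. Other definitions of membership left the same 34 genes.

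The titles number the libraries of each group 1, 2 and 3, while the descriptions number PANX1 replicates 1, 2 and 3 of the titles as 2, 3 and 4, so that only 4 libraries share a number by the descriptions. Libraries of the 2 groups with the same number in the titles had correlations of their deviations from the group means of 0.416, -0.362 and 0.143 for numbers 1, 2 and 3, so that the numbers were not taken to pair the samples, although the methods call the replicates matching. With the replicate block, 12 members were called higher and 1 lower, beside 581 and 33 genes of the table, and with the block by the numbers of the descriptions, over 4 libraries, 26 and 3, beside 1003 and 145. The calls gained with the block by titles were ATP6V0B (adjusted p = 0.0403 in limma) and SLC12A9 (0.0462), both higher, and SLC38A2 (0.0356), lower. With the GC correction and the block together the numbers were 0 and 0, beside 61 and 6 of 1266.

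Members without overlap numbered 28 higher, 5 with median-of-ratios scaling and 28 to 30 without 1 library. They numbered 3 lower, 4 with median-of-ratios scaling and 3 without any 1 library. The median log2 ratio of 1.22 became 0.028 with median-of-ratios scaling and 0.67 to 1.49 without 1 library. That scaling turned the median of the V-ATPase genes to -0.14, of metal carriers to -0.00056, of organic ion, lipid and other carriers to -0.060 and of potassium channels to -0.56, which was -0.86 with the minimum mean FPKM because KCNU1 then drops out. Limma changes turned under median-of-ratios scaling for 9 members, ATP13A1 (-0.26), ATP6V0B (-0.28), SLC12A7 (-0.25), SLC27A4 (-0.19), SLC2A8 (-0.12), SLC30A3 (-0.0065), SLC35C2 (-0.15), SLC26A6 (-0.091) and SLC10A3 (-0.061). With the GC correction, with or without the replicate block, they turned, among other members, for ATP13A1 (-0.11), SLC12A9 (-0.057), SLC22A17 (-0.28), SLC9A3R2 (-0.24) and SLC7A11 (0.36), and the change of SLC7A11 lay between -0.72 and 0.038 when 1 library was left out, with the positive value without GFP replicate 3. SLC30A1, KCNJ2 and SLC38A2 had a negative change under each alternative run. For the GC correction, the sign of a change depends on the reference GC content of 49.1%, and no other reference was tried.

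With 3 libraries per group and unknown depth, values of members under 1 FPKM are limited by their level, and most calls of single members depend on which libraries and which scaling are used.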
